A study of Caenorhabditis elegans with 4 samples.

Results

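The regions described here are the 2053 MEP-1 peaks on chromosome III of Caenorhabditis elegans, out of 11448 peaks in the combined list of the study. They were taken from the list by their chromosome alone, all widths were kept, and no value of a peak entered that rule. The rule itself was set with earlier results of these data known. Whole embryos of a hermaphrodite culture kept at 20 °C were crosslinked and used for ChIP-seq, in which DNA fragments bound by a chosen protein are pulled down with an antibody and sequenced. The strain, OP70, carries the unc119(ed3) allele and wgIs70, a transgene introduced by bombardment that encodes MEP-1 with TY1, EGFP and FLAG tags. The antibody was raised in goat against EGFP. The study sequenced the recovered DNA in 2 ChIP libraries, and unprecipitated input DNA of the same strain in 2 further libraries. The 4 libraries analysed here share genotype, stage and temperature, and none is from an untagged strain. The tag reports the transgenic protein, and whole embryos mix all embryonic cell types.

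The zinc-finger protein MEP-1 works with LET-418, the worm homologue of the chromatin remodeller Mi-2, and with the histone deacetylase HDA-1. Together they repress genes of the germline in the soma of the developing worm. Worm chromosomes have no single centromere. Their autosomes are divided into a central part, rich in widely expressed genes and poor in recombination, and a pair of arms, rich in repeats and in recombination.

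The deposited list gives a position and a q-value for each peak and no value for any single library. A q-value is a p-value, here of ChIP against control reads, adjusted for testing many regions. No error between replicates can therefore be given, the depth of each library is unknown, and the spreads given are between peaks or stretches of the chromosome. Peaks are not replicates, so the differences between parts of the chromosome are described without a test. Binomial and Poisson intervals cover counting error only. Across the genome the list kept 73.9% of the 15494 regions that the caller had tested. Positions are on build WormBase WS180. No gene annotation or genome sequence of that build was used here, so no gene is named and no sequence is shown.

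Chromosome III carried 149 peaks per Mb up to the end of its last peak at 13781250, and the other chromosomes together 109 per Mb. Taken singly, the others ranged from 78.5 per Mb on IV to 140 on II. Peaks of at least 200 bp numbered 77.3 per Mb on III, 76.2 on I, 73.3 on X, 71.9 on II, 57.5 on IV and 53.0 on V. With 13.8% of the length spanned by the list, III held 17.9% of its peaks. The peaks covered 530.2 kb, or 3.85% of the chromosome, against 3.19% on the other chromosomes together. The covered share was 3.65% on X, 3.59% on I, 3.56% on II, 2.67% on IV and 2.67% on V. On III the median peak was 200 bp wide, with quartiles of 97 and 347 bp. The scaled control also differed. At widths of at least 300 and under 400 bp, the median control was 15 reads on III and 20 on the other chromosomes, and the median ChIP count 84.5 and 77. With the control of every chromosome raised to the level of IV, III kept 1427 peaks, or 104 per Mb, and the other chromosomes 80.8 per Mb.

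The centre of III was more densely occupied by peaks than either arm. The centre was taken as the middle 0.5 of the chromosome, from 3.45 to 10.3 Mb, and each arm as the outer 0.25. The centre held 1157 peaks, or 168 per Mb, the left arm 426 peaks, or 124 per Mb, and the right arm 470 peaks, or 136 per Mb. The centre thus had 56.4% of the peaks (95% exact binomial interval 54.2 to 58.5%), where an even spread would give 0.5 of them. Of the 896 arm peaks, 47.5% lay in the left arm (interval 44.2 to 50.9%), a range that includes an even split between the arms. The left arm had a smaller share of the arm peaks of at least 200 bp (43.5%) and of the covered length of the arms (42.3%). The centre also held 58.2% of the covered length and 58.5% of the ChIP reads in peaks. On II the centre held 56.1% of the peaks, on V 59.4%, on I 53.8%, on IV 52.3% and on X 52.0%.

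The share of the centre was also computed without the narrower peaks. Peaks of at least 200 bp numbered 92.9 per Mb in the centre, 53.7 in the left arm and 69.7 in the right arm, which put 60.1% of them in the centre. At the left boundary, the last peak of the left arm ran from 3437687 to 3437756 and the first of the centre from 3452796 to 3453079, with midpoints 7591 and 7625 bp from the boundary. On the right, the peaks at 10333885 to 10334205 and at 10336299 to 10336438 lay 1892.5 and 431 bp from it.

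Along the chromosome the number of peaks per bin of 1 Mb ranged from 103 to 192, with a mean of 149 ± 26.3 per Mb (SD between 14 bins, the last of them 0.781 Mb long). The fullest bin, 5000001 to 6000000, lay in the centre and had 192 peaks, which covered 51.9 kb. The bins 8000001 to 9000000, with 180 peaks, and 3000001 to 4000000 and 9000001 to 10000000, with 170 each, came next. The emptiest bins lay in the arms. The bin 2000001 to 3000000 held 103 peaks over 22.5 kb and the bin 12000001 to 13000000 held 104 peaks over 29.9 kb. Centre and arms overlapped in this measure. The centre bins 6000001 to 7000000 and 7000001 to 8000000 held 145 and 151 peaks, the left-arm bin 1000001 to 2000000 held 143, and the right-arm bin 11000001 to 12000000 held 155. The right end from 13000001 onwards had 145 per Mb.

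**Figure D1:**
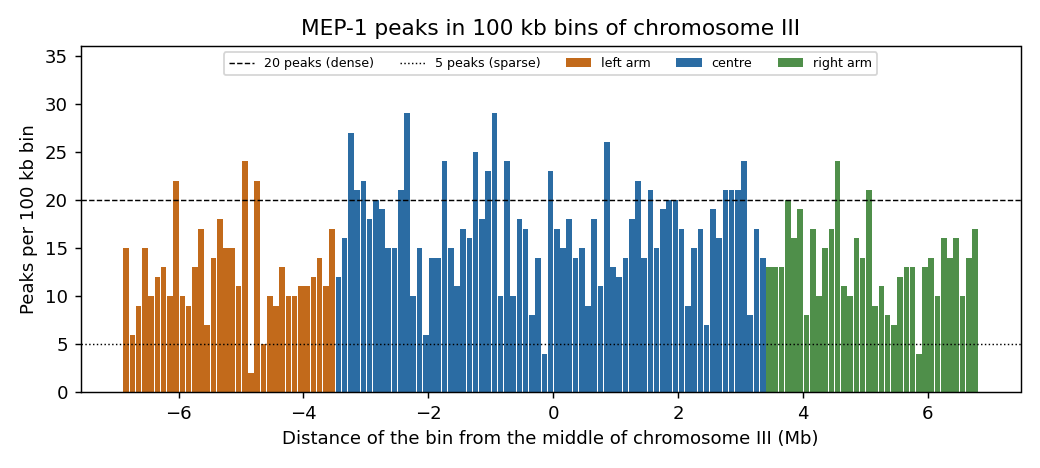
Number of peak midpoints in each full 100 kb bin of chromosome III (vertical axis) against the distance of the bin from the middle of the chromosome in Mb (horizontal axis), coloured by left arm, centre and right arm. Bars at or above the dashed line at 20 peaks are dense, 21 of 69 in the centre and 3 of 34 in each arm, and 4 bars reach no higher than the dotted line at 5.

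Dense stretches of III were counted in bins of 100 kb. Of its 137 full bins, 27 (19.7%) held at least 20 peaks, against 9.21% of the full bins of the whole list. The share was 21.1% on II, 7.18% on V and 2.82% on X. The median bin had 17 peaks in the centre, 11.5 in the left arm and 13 in the right arm. Of the dense bins, 21 lay in the centre, among 69 bins, and 3 in each arm, among 34 bins each. Neighbouring dense bins joined into 19 stretches. Together the dense bins made up 19.6% of the chromosome and held 30.1% of its peaks. The mean bin of III held 14.9 peaks, so a share of peaks above the share of length follows from the definition of a dense bin. With settings that remove peaks the number of dense bins was lower. It was 9 with peaks of at least 50 bp only and 3 with the control raised to the level of IV. With peaks of at least 200 bp only it was 0, and in the better 50% of the list by q it was 1. The share of dense bins over the whole list was not computed in these settings, so they do not show whether III would still exceed it.

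The longest dense stretch ran from 9600001 to 10000000 and held 87 peaks over 24588 bp, among them one with 498 ChIP reads, the widest peak of III. The stretch from 3600001 to 3900000, just inside the centre, held 70 peaks. Its peaks were interrupted by a gap of 30057 bp, from 3743218 to 3773274. The same stretch held the peak with the third lowest q of the chromosome, 4.78e-92. Stretches of 200 kb began at 4400001 (50 peaks), 5800001 (52 peaks) and 8700001 (40 peaks). The fullest single bins were 4500001 to 4600000 and 5900001 to 6000000, with 29 peaks each, median widths of 243 and 232 bp and median ratios of ChIP to control of 4.07 and 3.54.

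The other stretches of the centre were single bins. The bin from 7700001 had 26 peaks and the largest covered length among them, 10711 bp. The bin from 5600001 had 25 peaks, those from 5100001 and 6100001 had 24 each, and the bin from 6800001 had 23. Bins from 8200001, 8400001 and 4000001 had 22, 21 and 20 peaks. In the arms, dense bins began at 800001, 1900001 and 2100001 on the left, with 22, 24 and 22 peaks. On the right they began at 10600001, 11400001 and 11900001, with 20, 24 and 21 peaks.

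Peaks in dense bins had the same median width, 200 bp, as peaks in the bins with 6 to 19 peaks, and both classes had a median of 11 control reads. Their median ratios of ChIP to control reads were 4.07 in dense bins and 4.57 in the bins between. Of the 27 dense bins 21 lay in the centre, where the median ratio was 4.14, against 4.71 in both arms together. Whether the ratio goes with density within a region was not tested. The share narrower than 50 bp was 16.0% in dense bins and 14.7% in the bins between.

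Sparse bins were few. On III 4 of the 137 bins (2.92%) held 5 peaks or fewer, against 15.6% of the full bins of the whole list, a limit chosen after the values were seen. On IV the share was 29.3%, on V 27.3% and on II 6.58%. The 4 sparse bins were 2000001 to 2100000 with 2 peaks, 2200001 to 2300000 with 5, and 6700001 to 6800000 and 12700001 to 12800000 with 4 each. The sparsest of them lay between a dense bin of 24 peaks on its left and one of 22 on its right. From 1900001 to 2300000 the bins thus held 24, 2, 22 and 5 peaks.

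The median gap between the end of one peak and the start of the next was 2884 bp in the centre, 3994 bp in the left arm and 3969 bp in the right arm. Gaps in which no peak was listed, called long from 30 kb on, numbered 42 among the 2052 gaps of III (2.05%), against 5.66% of all gaps in the list. The left arm had 15 of them, the centre 16 and the right arm 11. They took up 18.9% of the left arm, 9.42% of the centre and 14.9% of the right arm. Over the whole chromosome long gaps took up 13.2% of the length, and on the other chromosomes from 24.8% (I) to 48.0% (IV). Fewer long gaps go with a higher number of peaks by arithmetic, so these shares are not independent of the density. With the control at the level of IV, which removes peaks, 83 gaps of III were long. The share of long gaps over the whole list was not computed in that setting.

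The longest gap of III, 69.4 kb, lay close to the middle of the chromosome, from 6731496 to 6800862. It was bordered by peaks of 112 and 171 bp with 31 and 39 ChIP reads, and the dense bin from 6800001, with 23 peaks, followed it. The next was a gap of 64.7 kb in the right arm, from 12714164 to 12778902, between a peak of 388 bp with 93 ChIP reads and one of 39 bp with 26. The third, of 63.7 kb, ran from 2037196 to 2100891 in the left arm, and its end lay just inside the dense bin from 2100001. The fourth and the fifth ran from 9272338 to 9331093 (58.8 kb) and from 13466593 to 13525187 (58.6 kb). A run of 9 close peaks started where the fifth ended.

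**Figure D2:**
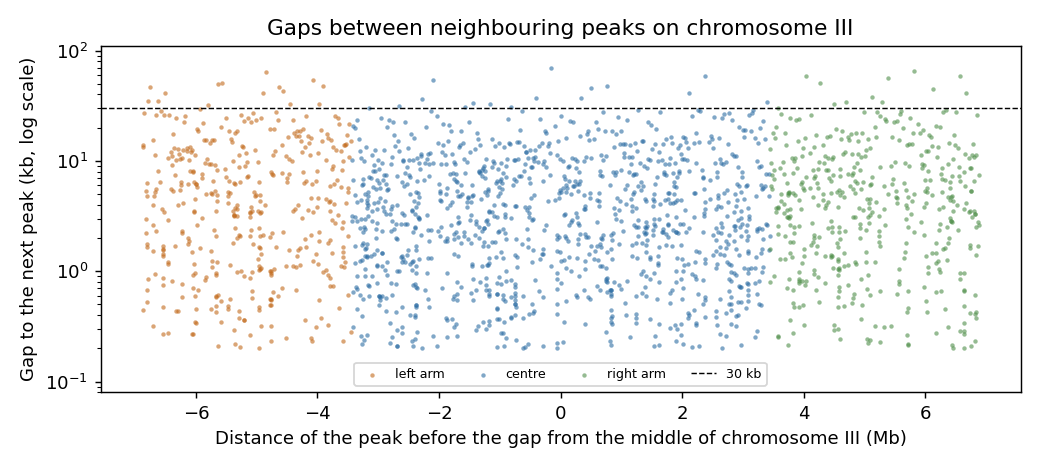
Gap from each peak of chromosome III to the next in kb (log scale, vertical axis) against the distance of the peak before the gap from the middle of the chromosome in Mb (horizontal axis), 1 point per gap. The 42 gaps above the dashed line at 30 kb are spread over the left arm (15), the centre (16) and the right arm (11), and no gap exceeds 69.4 kb.

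Close neighbours made up a like share of the gaps in all parts of III. Of the gaps on III, 22.6% were under 1000 bp, against 21.9% over the whole list, which is near the background. The share was 24.2% in the centre, 21.1% in the left arm and 20.0% in the right arm. Joining peaks less than 1000 bp apart left 1279 single peaks, 220 groups of 2, 56 of 3, 22 of 4, 6 of 5 and 6 larger groups. The largest groups, named after their values were seen, had 9 peaks each. They ran from 6135263 to 6141850, from 7723111 to 7731058 and from 13525188 to 13531015. The group from 7723111 held peaks between 148 and 939 bp, with 801 ChIP reads in all. The group from 6135263 had 435 reads over peaks of 9 to 480 bp. The highest ratios in these groups were 4.97 and 5.86, and 13.0 in the group of the right arm.

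Peaks with a close neighbour and peaks that stood alone were then compared by ratio. The median ratio was 4.27 for the 774 peaks with another within 1000 bp and 4.36 for the 104 peaks with none within 10000 bp. It was 4.50 for the 1175 peaks between these limits, so it did not rise steadily with spacing. In the centre lay 60.1% of the 774 peaks, 55.4% of the 1175 and 39.4% of the 104.

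The widths of the peaks differed along the chromosome. Peaks narrower than 50 bp numbered 310 on III (15.1%), against 12.2% over the whole list. Among single chromosomes this share ranged from 7.44% (IV) to 15.9% (II), with 14.3% for V, so III did not stand out. Within III such peaks made up 19.7% of the left arm, 13.1% of the centre and 15.7% of the right arm. The same parts of II had 19.7%, 13.3% and 18.6%. The median width on III was 165 bp in the left arm, 217 bp in the centre and 208 bp in the right arm. Peaks of at least 1000 bp numbered 33 (1.61%), against 1.82% over the whole list, of which 4 lay in the left arm, 19 in the centre and 10 in the right arm.

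**Figure D3:**
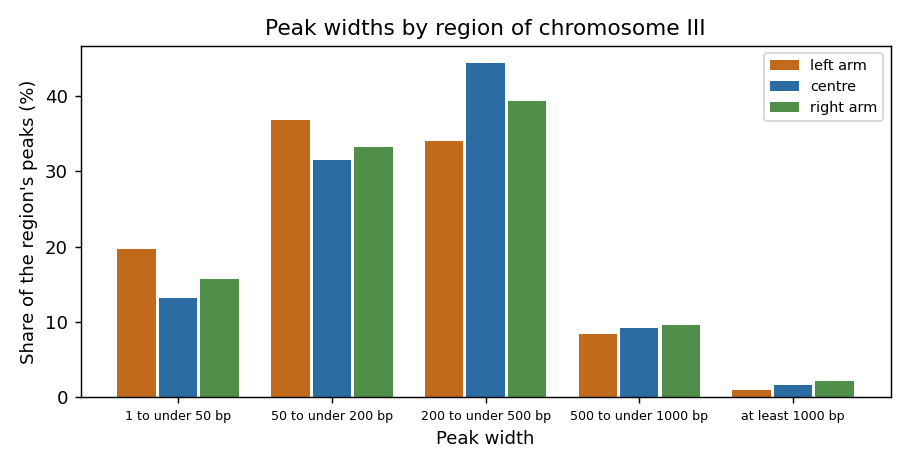
Share of the peaks of each region of chromosome III in percent (vertical axis) that fell into each of 5 width classes (horizontal axis), with bars for the left arm, the centre and the right arm. Peaks from 200 to under 500 bp made up 44.4% of the centre and 34.0% of the left arm, and peaks under 50 bp 13.1% and 19.7%.

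The q-values allow the reads behind them to be worked out, and for each of the 2053 peaks 1 pair of whole ChIP and scaled control reads matched. Control reads are those after the caller's scaling. Every read count and ratio given rests on the assumption that the binomial tail includes the observed ChIP count. With a tail that leaves it out, 1 read of every peak passes from ChIP to control, which changes ratios at few control reads most. The median ratio of III would then be 3.86 in place of 4.38, and the median of the arms would exceed that of the centre by 0.429 in place of 0.564. The peaks of III held 139834 ChIP reads in all, between 20 and 664 per peak, with a median of 46 (quartiles 31 and 82). The control had a median of 11 reads (quartiles 8 and 16). The ratio of ChIP to control had a median of 4.38, with quartiles of 3.43 and 6.33. The limit on q is a limit on these same reads, so the ratios describe listed peaks only.

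Wider peaks held more reads. Peaks under 50 bp had a median of 24 ChIP against 6 control reads, peaks from 200 to under 500 bp 71 against 14, and peaks of at least 1000 bp 279 against 51. The median ratio was 3.83 in the narrowest class, 3.63 from 50 to under 200 bp, 5.36 from 200 to under 500 bp, 6.10 from 500 to under 1000 bp and 6.37 from 1000 bp on. Across the 2053 peaks Spearman's rho was 0.98 between width and ChIP reads, 0.88 between width and −log10 q and 0.42 between width and ratio. These peaks share libraries and the same caller, and both measures of each pair come from the same reads.

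Arm peaks were fewer but had higher ratios. The median ratio was 4.87 in the left arm, 4.50 in the right arm and 4.14 in the centre. On every other chromosome the median of both arms together also exceeded that of the centre, such as 4.40 against 3.86 on II and 3.14 against 2.92 on IV. A ratio of at least 10 was reached by 130 peaks of III (6.33%), against 2.95% over the whole list. On II 5.32% of the peaks reached it, and on I, IV, V and X from 0.556% (X) to 2.28% (V). Within III the share was 8.69% in the left arm (37 peaks), 7.87% in the right arm (37 peaks) and 4.84% in the centre (56 peaks). The control moved with these ratios. At widths of at least 300 and under 400 bp, its median was 13 reads in the left arm, 15 in the right arm and 16 in the centre. The median ChIP counts there were 88, 77 and 86. In the same class the median ratio was 7.10 in the left arm (47 peaks), and 5.47 in both the right arm (65 peaks) and the centre (180 peaks). With the control of the arms raised to the level of the centre, a setting added after seeing the data, the median ratio of the arms exceeded that of the centre by 0.143 in place of 0.564. The share of the centre among the peaks was then 57.6%.

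**Figure D4:**
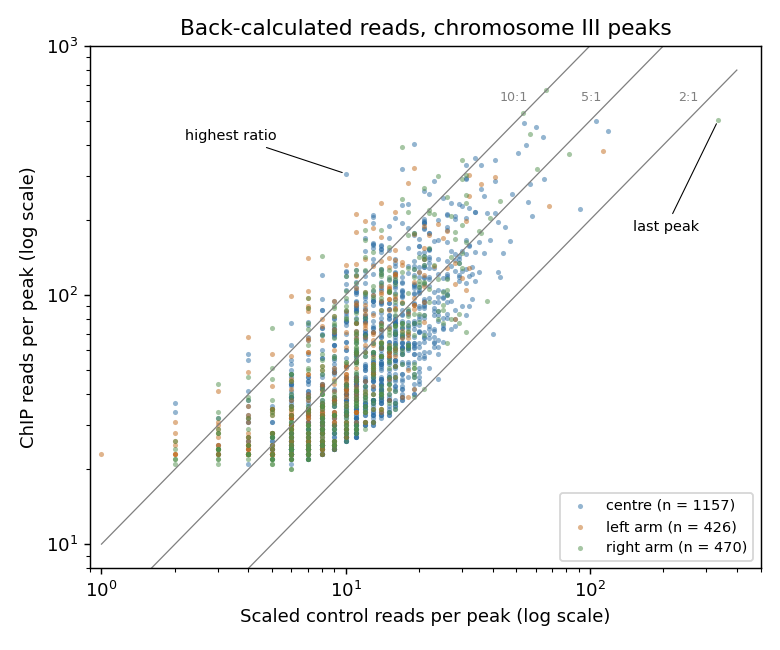
ChIP reads (vertical axis) against scaled control reads (horizontal axis), both on log scales, for the 2053 peaks of chromosome III, coloured by region, with grey lines at ratios of 2, 5 and 10. The last peak of the chromosome lies farthest right, at 335 control reads, and the peak with the highest ratio has 307 ChIP against 10 control reads.

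The peaks with the lowest q on III were of unlike widths. Among the 100 peaks of the whole list with the lowest q, 31 lay on III, which held 17.9% of the list, and among the 1000 with the lowest q, 21.9% did. Of the 31, 4 lay in the left arm, 17 in the centre and 10 in the right arm. The q-value depends on the control, which on III was as low as on II and lower than on the others. The 10 peaks of III with the lowest q had ratios from 7.75 to 30.7. Of these, 5 were 391 to 538 bp wide, with ratios of 17.1 and above, and 5 were 1211 to 2158 bp wide, with ratios of 10.2 and below.

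The highest ratio among the 5 peaks under 1000 bp belonged to the one from 8043733 to 8044123 in the centre, 391 bp wide. It held 307 ChIP reads (95% exact Poisson interval 274 to 343) against 10 control reads, and its ratio of 30.7 was the highest of the chromosome. Its neighbours were 14023 bp away on the left and 9321 bp on the right. The peak from 10758908 to 10759438 in the right arm had 392 ChIP against 17 control reads, a ratio of 23.1 and a q of 4.40e-91. Its neighbours were 10541 and 23408 bp away. The peak from 3867325 to 3867837 had 403 against 19 reads and a ratio of 21.2.

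Other peaks with high ratios lay in the centre and the left arm. From 7854421 to 7854877 the count was 320 ChIP against 17 control reads, with a ratio of 18.8. In the left arm, the peak from 2785757 to 2786294 had 324 against 19 reads and a ratio of 17.1. The peak from 2966514 to 2966899 had 141 against 7 reads, and the peak from 1859500 to 1859939 had 211 against 11. Their ratios of 20.1 and 19.2 came after those of 30.7, 23.1 and 21.2 among peaks of III with at least 100 ChIP reads. All 5 peaks with the highest ratios by that rule were between 386 and 531 bp wide.

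The 5 peaks over 1000 bp had lower ratios and more control reads. In the centre, the peak from 8416848 to 8418058 held 492 ChIP against 54 control reads (ratio 9.11). The peak from 8801200 to 8802414 held 474 against 60 (ratio 7.90). In the right arm, the peak from 12368141 to 12370286, 2146 bp wide, held 442 against 57 (ratio 7.75). The widest peak, 2825 bp from 9702722 to 9705546, had 498 against 106 reads, a ratio of 4.70, close to the median of the chromosome, and a q of 1.36e-59, rank 18 on III. The peak from 11935031 to 11937149, with 2119 bp, was not among them either. It had 321 against 61 reads, a ratio of 5.26 and a q of 4.68e-42, rank 50 on III.

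The peaks with the lowest and second lowest q of III lay among 6 neighbouring peaks near the right end, here called a group. Gaps between these neighbours reached 1818 bp, so the limit of 1000 bp used above does not join them all. The peak with the lowest q, from 13060912 to 13063069, was 2158 bp wide. It held 664 ChIP reads (95% exact Poisson interval 614 to 716) against 66 control reads, a ratio of 10.1 with a q of 8.59e-122. The peak with the second lowest q, from 13070168 to 13072096, held 540 (interval 495 to 588) against 53 reads, a ratio of 10.2 with a q of 1.06e-99. The intervals of the ChIP reads do not overlap, while the ratios were nearly equal.

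Between them lay 4 smaller peaks. The peak from 13067999 to 13068690 had 253 against 31 reads and a ratio of 8.16. The peak from 13064267 to 13064960 had 128 against 30 reads, with a ratio of 4.27. The peak from 13065611 to 13065906 had 70 against 11, and a peak of 1 bp at 13066180 had 24 against 3. The 6 peaks together spanned 11.2 kb, covered 51.6% of it and held 1679 ChIP reads, 1.20% of those in all peaks of III. No peak was listed for 44.8 kb before the group or for 20.9 kb after it. The group was described in full after its values were seen.

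**Figure D5:**
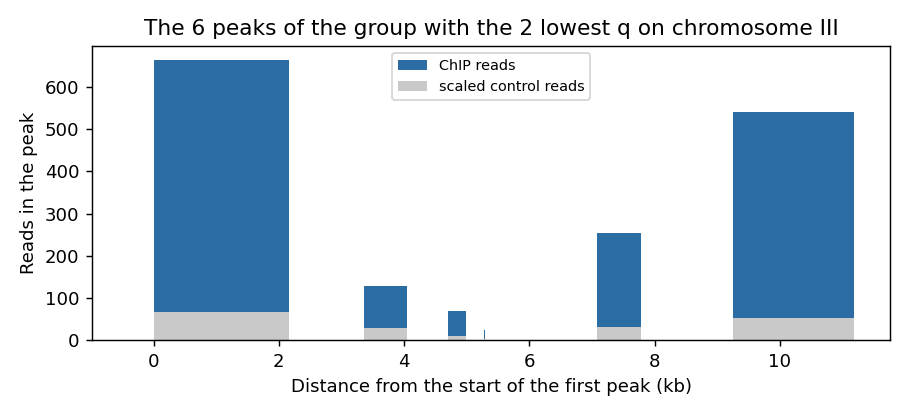
ChIP reads (blue) and scaled control reads (grey, drawn in front) in each of the 6 peaks of the group, as bars as wide as the peaks (the peak of 1 bp is drawn 30 bp wide), against the distance from the start of the first peak in kb. The outer peaks hold 664 and 540 ChIP reads and the 4 between them 24 to 253.

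The ends of the list on III looked unlike each other. The first peak, from 11453 to 11459, was 7 bp wide with 23 ChIP against 4 control reads. The last, from 13778916 to 13781250, was 2335 bp wide, the second widest of III. It held 502 ChIP against 335 control reads, the highest control count of the chromosome, and its ratio of 1.499 was the lowest of all 2053 peaks. The peak before it, from 13771027 to 13771410, had 104 against 10 reads and a ratio of 10.4.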

How the data were processed

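ChIP and input libraries, 2 of each, were grouped by their labels, which give the replicates no pairing with values in the list. The authors deposited 1 combined list of peaks with a q-value each, called with PeakSeq on WormBase WS180 per the file headers. Per the labels' protocols, embryos were crosslinked with 2% formaldehyde. Aligner, read filters, caller version and how replicates were combined: not given in the sources used here.

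Peaks with III in the chromosome column were kept and placed by their midpoint. The chromosome was taken to end with its last peak. To recover reads, q times rank over the number of regions tested gave back the p-value of a peak. That number was the one at which all 500 weak peaks used matched binomial tails (probability 0.5, observed count included, tolerance 1e-10 on the natural log scale). It was 15494, and the next best number matched 0. Of the whole list, 11441 peaks matched 1 pair of counts and 7 matched several. Counting, binning and back-calculation were tested on simulated data. Dense bins held at least 20 midpoints and long gaps had at least 30 kb.

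Peaks were named by rule as the 10 with the lowest q, the 5 with the highest ratio among those with at least 100 ChIP reads, the 5 widest, the first and the last, along with every dense stretch and the 5 longest gaps. Other positions were chosen after their values were seen. The members, limits and lists were chosen with earlier results of these data known. The gene table at hand is of assembly WBcel235 and was not used. Python 3.11.15, NumPy 2.4.6, SciPy 1.17.1, pandas 2.3.3 and matplotlib 3.10.9 were used.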

Additional observations from a re-analysis of the deposited data

How the results depend on the processing

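Of 63 values recomputed for 9 results, 40 stayed within their counting interval (shares) or within 1.5 times (counts and medians) and 23 moved further. A change of direction was looked for only in the share of the centre and the ratio difference between arms and centre, and none occurred. The left arm held 47.5% of the arm peaks, and 50.2% with the control at the level of IV. That crossed an even split but stayed within the counting interval. In the better 50% of the list by q, III had 1175 peaks with a median width of 323 bp, 0.681% of them under 50 bp, 1 dense bin and 104 long gaps. With peaks of at least 50 bp, 9 bins were dense and by construction 0% of the peaks were narrower. With peaks of at least 200 bp, 1065 remained, with a median width of 338 bp, 0 dense bins and 120 long gaps. Of these 60.1% lay in the centre, and 43.5% of the arm peaks in the left arm. With the control at the level of IV, 6.45% were under 50 bp, 3 bins were dense, 83 gaps were long, and the median ratio of the arms exceeded that of the centre by 0.195. With the control of the arms at the level of the centre, added after seeing the data, this difference was 0.143. These settings remove peaks, so fewer dense bins and more long gaps follow by construction. With the centre narrowed to the middle 0.333 of the chromosome, its density made up 52.8% of the sum of centre and outer densities (56.4% for the middle 0.5). By covered length the left arm had 42.3% of the arms. At least 25 peaks were held by 5 bins, and 136 gaps reached 20 kb. The share of the centre stayed above 50% in all settings run. Merging of overlapping peaks joined none, so its values for the 9 results could not move and are counted among the 40 by construction. No paired analysis was possible because peaks have only 1 value, made from all libraries together, which also means that leaving out a replicate was not possible. Regions that missed the limit on q were not analysed here, and so no setting could add peaks. Settings that changed only a limit, the bins or the measure kept all peaks.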

Other observations

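Some features of the list on III are given as values only. The most common width was 200 bp, with 42 peaks of exactly that width, and 14 peaks were 1 bp wide. The shortest gaps measured 200 bp, and 4 gaps had exactly that length. No listed peak had fewer than 20 ChIP reads, including the 166 peaks narrower than 20 bp.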
